A study of Mus musculus with 18 samples.

Results

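The genes described here are 9 genes of fatty acid oxidation and ketone body production: Cpt1a, Cpt2, Acadm, Acadl, Acadvl, Hadha, Bdh1, Ppara and Fgf21. They were taken by gene symbol from a table of 31165 genes, and all 9 were found, each in 1 row. All 9 averaged at least 10 scaled counts across libraries and so were among the 14104 genes tested. The rows were picked by symbol and not by expression value, but the 9 genes were chosen with earlier results of these data known.

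Livers of newborn C57BL/6J mice, an inbred strain, were profiled by stranded mRNA sequencing. The pups had received intraperitoneal injections on postnatal days 1 and 3 of either a stabilised copy of miR-497a-5p, a microRNA, or of a scrambled mimic without activity, in a volume of 15 µl per g. Livers were harvested at P5, P7 or P14, where P1 is the day of birth. The 6 groups were P5 mimic, P5 scrambled, P7 mimic, P7 scrambled, P14 mimic and P14 scrambled, with 3 libraries each. Groups dosed at 100 or 10 mg per kg appear in the protocol, but which dose a given library had is not labelled. All pups were wild type, all were injected and no uninjected livers were analysed here. Litters were randomised among nursing dams, and the labels do not say which litter a pup came from, so the p-values measure the spread between these livers, which may be partly technical.

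Liver mitochondria burn fatty acids in the suckling period, when milk supplies most energy as fat. CPT1A on the outer mitochondrial membrane and CPT2 on the inner one pass long-chain fatty acids into the mitochondrion as carnitine esters. The acyl-CoA dehydrogenases encoded by Acadvl, Acadl and Acadm begin each round of β-oxidation on very long, long and medium chains, and HADHA, the α subunit of the trifunctional protein, carries out the following steps. BDH1 interconverts acetoacetate and β-hydroxybutyrate, the main ketone bodies. PPARα is the nuclear receptor that switches on many of these genes in fasting and suckling, and FGF21 is a liver hormone under its control.

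The injected microRNA and its possible sites in the 9 transcripts are shown because a direct effect of a microRNA runs through such sites. The mature mouse miR-497a-5p (chr11:70234730-70234751, plus strand, GRCm38.p6, RefSeq) is written with its seed, bases 2 to 8, in capitals.
mmu-miR-497a-5p: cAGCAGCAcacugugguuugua
The 7-base match to that seed, TGCTGCT, was searched on the sense strand of the longest annotated 3′ UTR of each gene (GENCODE M21, GRCm38). It occurred in 2 of the 9 genes, with 2 matches in Cpt1a and 1 in Acadm, and in 21.7% of the 18781 genes with an annotated 3′ UTR. The matches are given in capitals with the bases around them, in the direction of the transcript. The Cpt1a windows lie at chr19:3384502-3384531 and chr19:3385451-3385480 on the plus strand, and the Acadm window at chr3:153922860-153922889 on the minus strand.
Cpt1a, first match: gtggatatgtgagggTGCTGCTtcccctca
Cpt1a, second match: tccagtgtccttcctTGCTGCTcctgagca
Acadm: agctccaagcactgtTGCTGCTtcagggga
A match is a description of these letters and not evidence of binding.

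Expression is given as scaled counts, the deposited gene counts after division by a size factor per library. They summed to 3954405 to 4248257 per library, and the reads in genes behind them were estimated at 3006600 to 5319600. The hepatocyte list (14 of its 15 markers were in the table) was detected in every library, with a summed level of 18315 to 25903. Genes with a mean under 0.2 scaled counts over 16 libraries, all but P7 scrambled replicates 2 and 3, were taken as silent. At these genes P7 scrambled replicates 2 and 3 had 0.17 and 3.11 scaled counts per kb, against at most 0.0263 in the other 16 libraries. The choice of genes held those 16 low and left these 2 free to be higher. P7 scrambled replicates 1 and 3 stood apart by skeletal and heart muscle transcripts, which summed to 2327 and 533 scaled counts against 48 to 90 in the other 16. Libraries also differed in how their values ran with transcript length. The rank correlation, over genes, between a gene's deviation from its mean and its transcript length was -0.376 to 0.208 at P5, 0.0584 to 0.515 at P7 and -0.252 to 0.0203 at P14. The P7 libraries therefore lay above most of the others on this measure, and it is given beside each result it moves with.

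The mitochondrial enzymes were among the most abundant transcripts of these livers. Per kb of transcript, Bdh1 (chr16:31422280-31458901, mm10) had 615 scaled counts on average over the 18 libraries, Acadvl (chr11:70010183-70015408) 565, Acadl (chr1:66830839-66863277) 555, Acadm (chr3:153922357-153944632) 438, Cpt1a (chr19:3323301-3385732) 420, Hadha (chr5:30118304-30155162) 383 and Cpt2 (chr4:107903981-107923610) 297. These 7 lay between the 92.3 and 99.2 percentiles of the tested genes. Ppara (chr15:85735564-85802819) had 139 per kb, at the 74.3 percentile, and Fgf21 (chr7:45613886-45615490) 61.9 per kb, at the 48.2 percentile. The enzymes differed little from liver to liver: the highest library exceeded the lowest 1.28-fold in Acadl and Acadm and 1.51-fold in Cpt1a, the extremes of the 7. The range was 2.96-fold in Ppara and 7.85-fold in Fgf21. The hepatocyte marker Alb had 1672 to 2886 scaled counts per library, near the 1616 to 2273 of Bdh1. Whether the counts of abundant transcripts were compressed, which would narrow such ranges, was not tested. The SD within groups was 4.9% to 8.56% of the mean for the enzymes, 19.5% for Ppara and 35.1% for Fgf21, where counting error alone would give 2.28% to 3.79%, 4.87% and 15.9%.

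**Figure D1:**
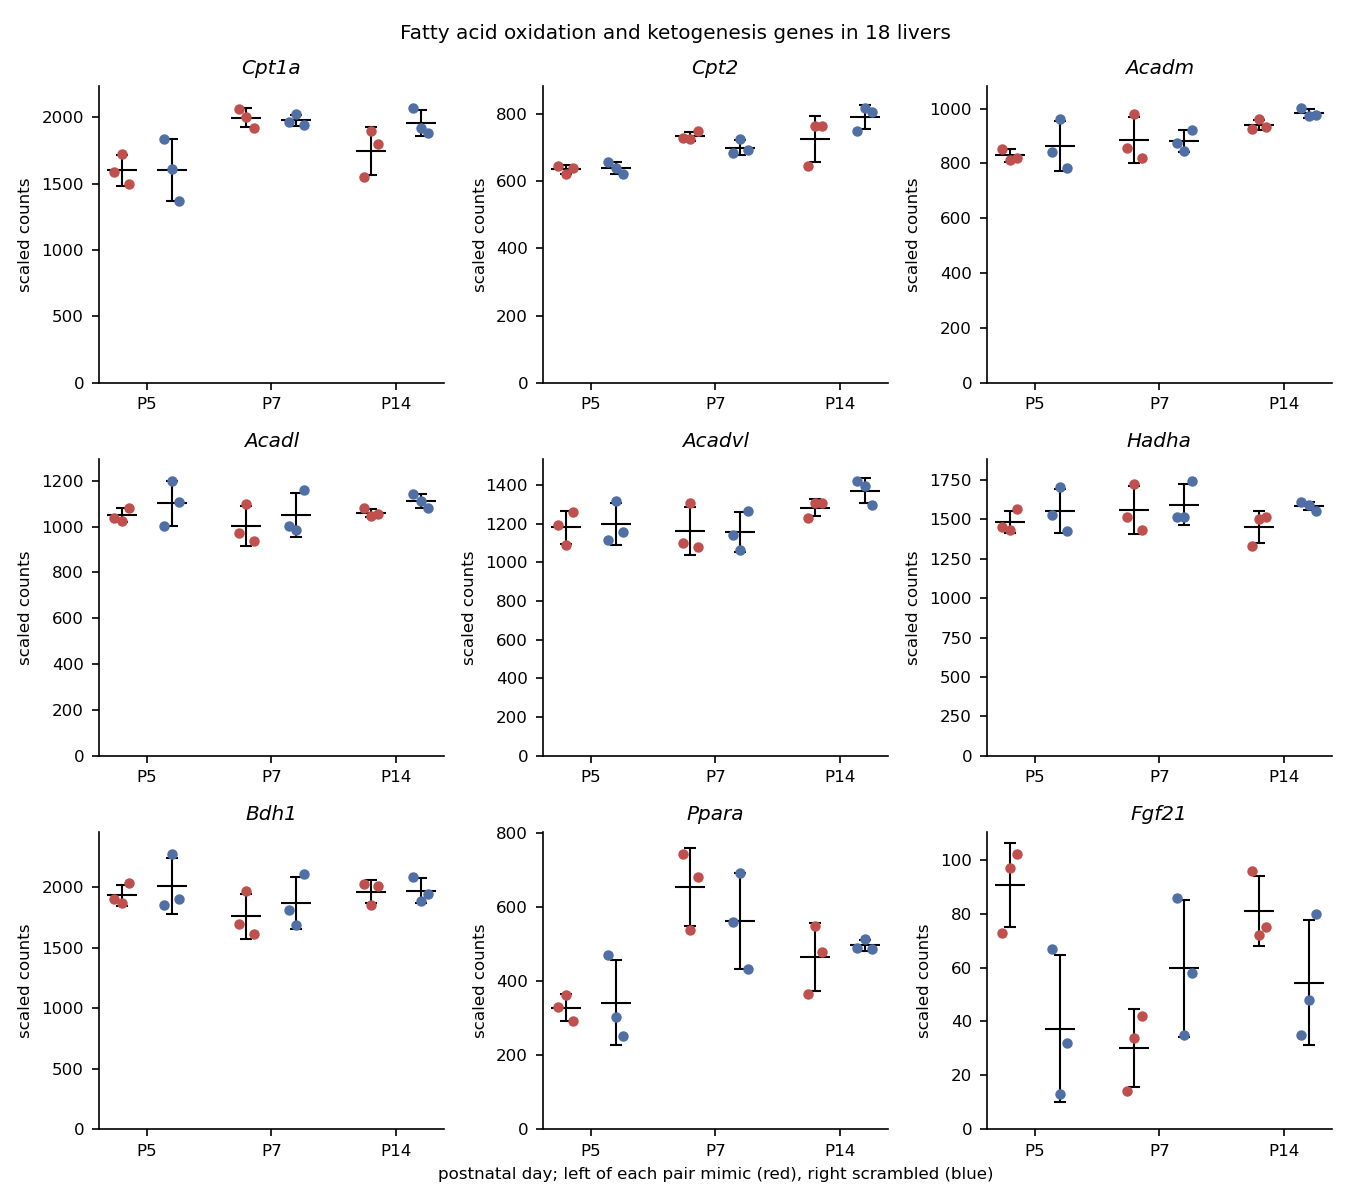
Scaled counts of the 9 genes in each library (points; red, mimic; blue, scrambled) by postnatal day, with group mean and SD (n = 3). The enzymes occupy a narrow band, Ppara is highest on average at P7, and Fgf21 ranges from 13 to 102.

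Between P5 and P14 the carnitine enzymes Cpt1a and Cpt2, the medium-chain dehydrogenase Acadm and the receptor gene Ppara rose by 1.14- to 1.45-fold, while Acadl, Hadha and Bdh1 had log2 differences between -0.00 and 0.02. In limma on log2(value + 1), averaged over both injections, 4 of the 9 genes passed an adjusted p of 0.05 and all 4 were higher at P14. Of all 14104 genes 48.8% passed, 23.9% higher and 24.8% lower, so a change with age was common in this tissue. The median log2 difference was 0.19 over the 9 genes and 0.01 over all genes tested.

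Ppara showed the largest of these rises. At P5 it had 329, 364 and 292 scaled counts in mimic and 471, 302 and 251 in scrambled livers. At P7 it had 743, 539 and 683 in mimic and 559, 694 and 434 in scrambled livers. At P14 it had 366, 549 and 480 in mimic and 489, 515 and 488 in scrambled livers. The P7 livers were the highest on average, and 1 P5 scrambled liver reached the P14 range. The log2 difference of P14 from P5 was 0.54 (SE 0.14, limma adjusted p 0.00398).

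Cpt2, the inner membrane carnitine enzyme, had the smallest spread. It had 647, 621 and 639 scaled counts in mimic and 657, 640 and 621 in scrambled livers at P5. At P7 it had 729, 725 and 749 in mimic and 685, 725 and 693 in scrambled livers. At P14 it had 646, 765 and 765 in mimic and 751, 819 and 808 in scrambled livers. At P14 5 of 6 livers lay above all 6 P5 livers, and the exception was mimic replicate 1. The log2 difference of P14 from P5 was 0.25 (SE 0.05, limma adjusted p 0.000775).

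Cpt1a, the step at which malonyl-CoA restrains fatty acid entry, had 1585, 1722 and 1493 scaled counts in mimic and 1835, 1608 and 1367 in scrambled livers at P5. At P7 it had 2060, 2004 and 1920 in mimic and 1962, 2023 and 1943 in scrambled livers. At P14 it had 1546, 1896 and 1794 in mimic and 2069, 1921 and 1877 in scrambled livers. All 6 P7 livers lay above all 6 P5 livers, while the P14 and P5 livers overlapped. The log2 difference of P14 from P5 was 0.21 (SE 0.07, limma adjusted p 0.0192). This call was lost without P5 mimic replicate 3, P5 scrambled replicate 3, P14 mimic replicate 2 or P14 scrambled replicate 1, at log2 differences of 0.15 to 0.19 and limma adjusted p of 0.0515 to 0.0547.

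Acadm had 927, 961 and 934 scaled counts in mimic and 1002, 971 and 975 in scrambled livers at P14. At P5 it had 854, 811 and 821 in mimic and 842, 961 and 783 in scrambled livers. Every P14 liver lay above every P5 liver apart from P5 scrambled replicate 2, at 961. P14 exceeded P5 by 0.19 on the log2 scale (SE 0.06, limma adjusted p 0.0124). Its very-long-chain relative Acadvl had 1230, 1308 and 1308 in mimic and 1419, 1392 and 1296 in scrambled livers at P14, against 1192, 1089 and 1261 in mimic and 1116, 1318 and 1157 in scrambled livers at P5, for a log2 difference of 0.16 that missed the threshold (adjusted p 0.0552).

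Other values moved with these rises. The red cell precursor list summed to 13495 to 18912 scaled counts at P5, 9131 to 15193 at P7 and 2106 to 3791 at P14. In bulk tissue, fewer cells of a type and less RNA per cell cannot be told apart. When each library was centred on the hepatocyte markers instead of all genes, the median of all genes at P14 against P5 moved to -0.16, and the 4 log2 differences became 0.37 for Ppara, 0.08 for Cpt2, 0.04 for Cpt1a and 0.02 for Acadm, with none called higher (limma adjusted p 0.125 to 0.774). Centring shifts every gene of a library by the same amount. The estimated worth of 1 read was highest in P5 scrambled replicate 2, at 1.41 scaled counts, and lowest in P7 mimic replicate 3, at 0.785. The markers Alb and Apoa1 were highest in the first (2886 and 1204) and lowest in the second (1672 and 706). So this centring may follow depth as well as hepatocyte content, and the parts were not told apart. With this centring Hadha and Bdh1 were called lower at -0.17 each and Acadl at -0.15, close to the shifted median itself. With the length measure as a covariate the 4 calls held and Acadvl joined them at 0.18 (limma adjusted p 0.00602). In scrambled livers alone 3 of the 4 were called (Ppara at 0.59, Cpt2 at 0.31 and Cpt1a at 0.30) and in mimic livers alone 0, at 0.12 to 0.49. A difference between the injections in this change was not called for any of the 9 genes.

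Between P5 and P7, Ppara and Cpt1a rose in the fit over all 18 libraries, and so did Cpt2, but these calls were lost with the libraries' length measure as a covariate. The log2 differences were 0.87 for Ppara (SE 0.14, limma adjusted p 0.00185), 0.32 for Cpt1a (SE 0.07, 0.00568) and 0.17 for Cpt2 (SE 0.05, 0.0262). So 3 of 9 passed, beside 26.9% of all genes, 13.7% higher and 13.2% lower. With the length measure as a covariate the differences were 0.29, 0.15 and 0.11, and limma called 0 of the 9 and 0 of all genes, with 1385 genes at an unadjusted p under 0.05. In scrambled livers alone 0 of all genes passed as well, and Ppara, Cpt1a and Cpt2 had log2 differences of 0.74, 0.31 and 0.13. Cpt2 also lost its call without any 1 of 5 libraries, with limma adjusted p of 0.0555 to 0.0667: P5 mimic replicate 3, P5 scrambled replicate 3, P7 mimic replicates 1 and 3, and P7 scrambled replicate 2. Without P7 scrambled replicates 2 and 3 together, Ppara and Cpt1a kept their calls.

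Between P7 and P14 only Acadvl was called among the 9, being higher at P14 by 0.20 on the log2 scale (SE 0.07, limma adjusted p 0.0193), where 50.3% of all genes passed, 24.0% higher and 26.3% lower. At P14 it had 1230 to 1419 scaled counts and at P7 1061 to 1307. The difference of Acadvl was 0.02 with the length covariate and -0.0037 with centring on hepatocyte markers, and without P7 mimic replicate 1 or 3, or P7 scrambled replicate 2, its adjusted p was 0.0523 to 0.0587. Ppara had -0.33 (limma adjusted p 0.0639) and passed, at -0.39 to -0.41, without P7 mimic replicate 2, P7 scrambled replicate 3 or P14 mimic replicate 2. Its difference turned to 0.18 with the length covariate. Acadm was called without P7 mimic replicate 2, at 0.16 against 0.12 with all libraries.

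**Figure D2:**
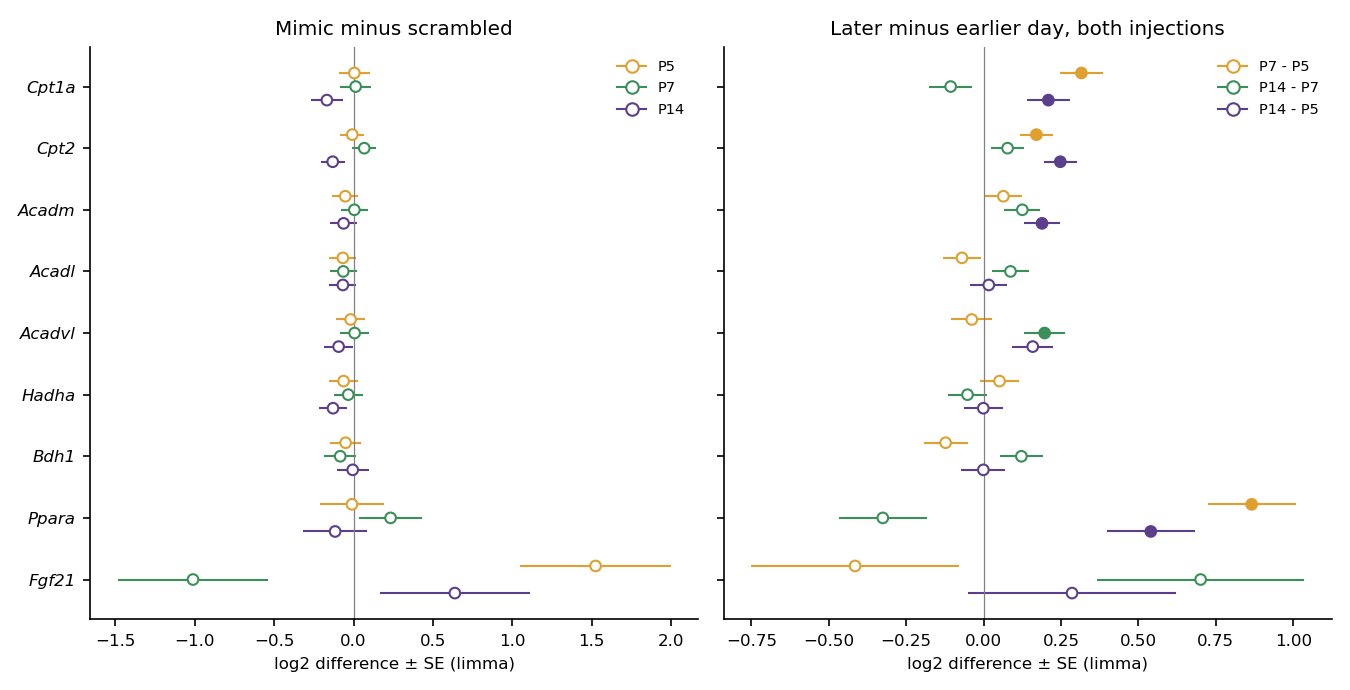
Log2 differences with SE from limma for the 9 genes: mimic minus scrambled at each day (left) and later minus earlier day averaged over both injections (right). Filled points passed an adjusted p of 0.05; the mimic panel holds none, and the age panel holds 4 at P14 against P5, 3 at P7 against P5 and 1 at P14 against P7.

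The enzymes Acadm, Acadl, Acadvl, Hadha and Bdh1 went up and down together from liver to liver, and Ppara and Cpt1a followed each other instead. After subtraction of each group's mean, the 10 pairs among the 5 enzymes had Pearson's r of 0.72 to 0.93 over the 18 libraries, with a median of 0.82. Ppara had an r of 0.79 with Cpt1a, -0.77 with Acadl and -0.67 with Bdh1. The same libraries' length measure had an r within groups of 0.81 with Ppara, 0.54 with Cpt1a, 0.36 with Cpt2 and 0.24 with Fgf21, and of -0.77 with Acadl, -0.72 with Acadvl, -0.71 with Bdh1, -0.53 with Acadm and -0.38 with Hadha. In P5 scrambled replicate 2, where 1 read was worth most (1.41 scaled counts), all 5 enzymes had their highest P5 value. In P7 mimic replicate 3, where 1 read was worth least (0.785), all but Acadvl had their lowest P7 value. The hepatocyte markers Alb and Apoa1 had their extremes in the same libraries. The correlations share libraries and depth and are descriptions, and the part of depth in them was not tested.

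**Figure D3:**
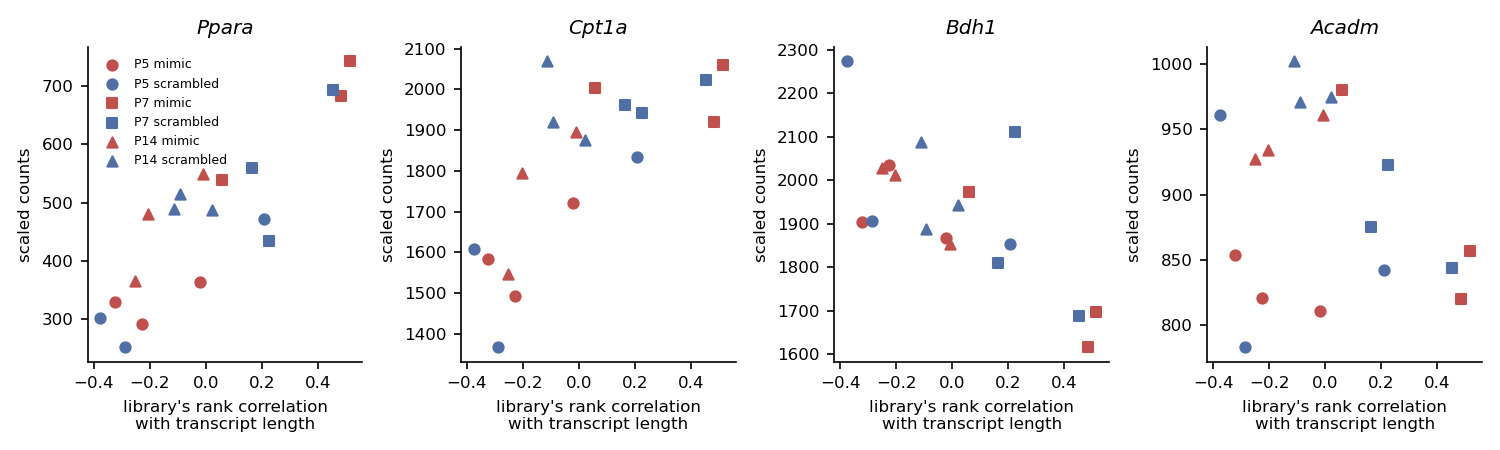
Scaled counts of Ppara, Cpt1a, Bdh1 and Acadm (y) in each library against that library's rank correlation with transcript length (x). Ppara climbs and Bdh1 declines along the axis, with r of 0.84 and -0.74 over the 18 libraries, and the P7 libraries (squares) lie to the right.

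Over the 18 libraries, each gene was set against all other tested genes by Pearson's r of log2(value + 1), and the nearest are given as a description. Hadha was closest to C3 (0.92) and to Hadhb (0.92), which encodes the other subunit of the trifunctional protein. Bdh1 was closest to Acaa2 (0.94), the thiolase that ends a β-oxidation round, and then to Rbp4 and Atf5. Acadvl was closest to Suclg1, Aldh2 and Gstz1 (0.94 each), Acadl to Rac1, Atp5b and Gapdh (0.94, 0.94 and 0.93), Acadm to Cat, Mat1a and Aqp9 (0.93 each), and Cpt2 to Ndufs1 (0.95), Acaca and Mthfd1 (0.92 each). Cpt1a was closest to Sec31a, Ndst1 and Gtf2i (0.94, 0.93 and 0.93) and Ppara to Abca6, Ash1l and Adcy9 (all 0.97). Fgf21 had no match as close: its nearest were Plekhb1, Pik3r3 and Med27 at 0.80 to 0.81.

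Because PPARα binds pairs of the half-site AGGTCA, that motif was looked for on both strands of the RefSeq promoter windows (250 bases before to 50 after the start, GRCm38.p6). It occurred in 3 of the 9 genes (Cpt1a, Acadm and Acadvl) and in 16.3% of 32851 promoters. The half-sites are in capitals, along the strand of the gene; TGACCT is the same site on the other strand. The windows are chr19:3323195-3323224 (plus strand), chr3:153944875-153944893 (minus strand) and chr11:70015498-70015527 (minus strand).
Cpt1a: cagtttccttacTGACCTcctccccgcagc
Acadm: gTGACCTtcgggctccggt
Acadvl: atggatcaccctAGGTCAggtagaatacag
The spaced pair AGGNCANAGGNCA, searched on both strands, was in the windows of 0 of the 9 genes and in 0.381% of all promoters. Letters absent from these windows say nothing about the factor.

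The mimic changed none of the 9 genes past the threshold at any day. In limma, 0 of 9 passed at P5, at P7, at P14, in the average over days and in the F test for a difference between days. The share of all genes that passed was 0.0% at P5, 0.00709% at P7, 0.0213% at P14, 0.00709% in the average and 0.00709% in the F test. At an unadjusted p under 0.05 there were 1, 1 and 0 of the 9 at the 3 days, against 1.89%, 7.61% and 5.41% of all genes. For the 7 enzymes the log2 differences lay between -0.17 and 0.07, with SE of 0.08 to 0.10. Cpt1a and Acadm, the genes with a seed match, had 0.00 and -0.05 at P5, 0.01 and 0.00 at P7, and -0.17 and -0.06 at P14.

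Fgf21 was the exception in size, though not in significance. At P5 it had 73, 97 and 102 scaled counts in mimic livers, against 67, 13 and 32 in scrambled livers, and the groups did not overlap. At P7 it had 14, 34 and 42 in mimic livers, against 86, 35 and 58 in scrambled livers, with overlap. At P14 it had 96, 72 and 75 in mimic livers, against 35, 48 and 80 in scrambled livers, again with overlap. Thus the mimic mean was above the scrambled mean at P5 and P14 and below it at P7. The log2 differences were 1.52 (SE 0.47, unadjusted p 0.00465, limma adjusted p 1), -1.01 (SE 0.47, unadjusted p 0.0464, limma adjusted p 0.649) and 0.64 (SE 0.47, limma adjusted p 0.986). The P5 difference was 0.94 without P5 scrambled replicate 2 and 2.08 without P5 scrambled replicate 1. The P7 difference was -0.55 without P7 mimic replicate 1. The P14 difference was 0.37 without P14 scrambled replicate 1 and 0.95 without P14 scrambled replicate 3. The test that the effect differed between days gave an unadjusted p of 0.0044 and a limma adjusted p of 0.496. Of all genes, 2.89% were higher in all 3 mimic livers than in all scrambled livers at P5 and 2.12% lower.

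Ppara itself overlapped between mimic and scrambled livers at every day, with log2 differences of -0.01, 0.23 and -0.12 at P5, P7 and P14 (SE 0.20 each). None of the 9 genes was free of overlap at P7, where 6.52% of genes were higher and 7.44% lower in all 3 mimic livers. At P14 Hadha had 1334, 1500 and 1517 in mimic livers, against 1607, 1590 and 1555 in scrambled livers. Acadm at P14, given above, was likewise lower in every mimic liver than in every scrambled liver. These 2 of 9 stand beside 4.35% of genes lower and 4.96% higher without overlap, and their log2 differences were -0.13 and -0.06 (limma adjusted p 0.986 and 0.999).

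At P14 most oxidation genes had small negative differences between mimic and scrambled livers, with no gene called. Of the 9 genes 8 had a negative difference, with a median of -0.09, as did 17 of 18 further β-oxidation genes (median -0.07) and 13 of 14 peroxisomal ones (median -0.08). Of the carnitine and activation genes 7 of 11 were negative (median -0.06), and of the ketone genes 3 of 8 (median 0.01). Over all genes tested 51.1% were positive. With quantile normalization the count for the 9 genes became 4 of 9 negative, and 10 of 18 and 9 of 14 for the other lists. At the same day 13 of 14 hepatocyte markers had a negative difference, with a median of -0.05, summing to 21718 to 23838 scaled counts in mimic and 23032 to 25506 in scrambled livers. Of 15 red cell precursor markers 14 had a positive one, with a median of 0.59, summing to 2710 to 3791 in mimic and 2106 to 2850 in scrambled livers. The estimated worth of 1 read was 0.96 and 0.974 scaled counts in P14 mimic replicates 2 and 3. Both lay below every P14 scrambled liver, the lowest of which had 0.992. P14 mimic replicate 1 went the other way, level with the highest P14 scrambled liver. The part of hepatocyte content, red cell precursors or depth in these small differences was not tested.

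Genes that PPARα is known to switch on outside oxidation were mostly lower in mimic livers at P7, none past the threshold over all genes. Of 12 tested genes of this list, Fgf21 apart, 11 had a negative log2 difference with a median of -0.48, where the median of all genes was -0.00. In 7 of the 12 the unadjusted p was under 0.05, and in 7 every mimic liver lay below every scrambled liver, against the 7.61% and 7.44% of all genes given above. The list was examined with earlier results of these data known, and its genes share a regulator, so this count is a description. At P5 its median was 0.05 and at P14 0.00. The oxidation lists did not share the P7 pattern, with 10 of 18 further β-oxidation genes positive (median 0.02) and 7 of 14 peroxisomal ones (median 0.00).

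Vnn1, which encodes the pantetheinase vanin-1, had the smallest p of all pathway genes at P7. It had 261, 214 and 165 scaled counts in mimic livers, against 325, 343 and 355 in scrambled livers, which is -0.70 on the log2 scale (SE 0.17, limma adjusted p 0.272). Angptl4, a secreted inhibitor of lipoprotein lipase, had 276, 287 and 290 in mimic livers, against 505, 408 and 399 in scrambled livers, and a difference of -0.61 (limma adjusted p 0.333). In both genes every mimic liver lay below every scrambled liver at P7, and neither passed after adjustment.

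Acot1, an acyl-CoA thioesterase, had 49, 53 and 68 scaled counts in mimic livers, against 104, 114 and 97 in scrambled livers at P7, for -0.89 (limma adjusted p 0.286). At P5 Acot1 lay the other way round, with 123, 145 and 133 in mimic livers, against 108, 62 and 103 in scrambled livers, for 0.59 (limma adjusted p 1), or 0.34 without P5 scrambled replicate 2. It and Acot2 (-0.64 at P7) are close copies of each other, as are Cyp4a10 (-0.33 at P7) and Cyp4a14, so reads may be divided between them. Hilpda, a lipid droplet protein gene, had -0.47, and Pdk4, which restrains glucose oxidation, had -0.49 with overlapping groups.

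The names of Acot1, Acot2, Angptl4, Hilpda, Cyp4a10 and Cyp4a14 in the mimic comparisons, and of Vnn1 at P14, were chosen after their values were seen. At P7 the muscle list summed to 53 to 71 scaled counts in mimic livers and 64 to 2327 in scrambled livers, and 10 of 10 tested muscle genes had a negative difference. Kidney and adrenal markers summed to 9 to 15 in mimic livers at P7, against 23, 18 and 131 in scrambled livers, and to 3 to 25 at the other days. Without P7 scrambled replicate 1, the liver with the most muscle RNA, 11 of the 12 PPARα-regulated genes stayed negative with a median of -0.42, and 4 had an unadjusted p under 0.05. Without P7 scrambled replicate 3, 10 of 12 were negative with a median of -0.55. Without P7 scrambled replicates 2 and 3 together 12 of 12 were negative with a median of -0.59. That fit kept only 1 P7 scrambled liver, replicate 1, the one with the most muscle RNA. Replicates 1 and 3, which both had raised muscle RNA, were not left out together. With the length covariate 11 of 12 were negative at a median of -0.51. At P14, Cyp4a10 had 420, 517 and 486 in mimic livers, against 567, 617 and 775 in scrambled livers (log2 difference -0.45, limma adjusted p 0.376). Vnn1 at P14 had 0.37, in the other direction from P7.

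**Figure D4:**
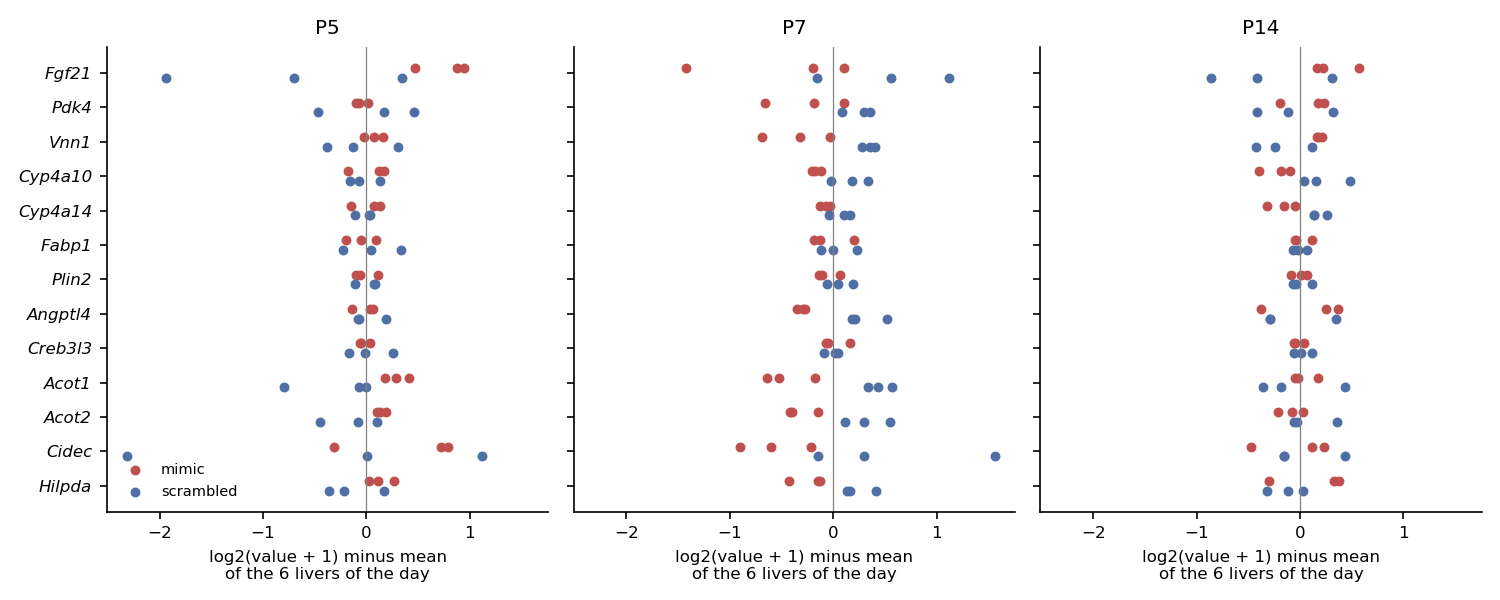
Fgf21 and the 12 tested PPARα-regulated genes outside oxidation at each day: log2(value + 1) of each liver minus the mean of the 6 livers of that day (red, mimic; blue, scrambled). At P7 mimic points of most genes lie left of the scrambled ones, with 11 of 12 differences negative, while at P5 and P14 the medians were 0.05 and 0.00.

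Slc16a6, a transporter of ketone bodies out of liver, had the smallest p of the pathway genes at P14, with 236, 243 and 257 in mimic livers, against 158, 182 and 106 in scrambled livers (log2 difference 0.75, SE 0.16, limma adjusted p 0.103). Klb, the co-receptor for FGF21, had -0.02, 0.15 and -0.28 at P5, P7 and P14. In all, limma called 0 of 90 tested pathway genes outside the 9 at any day, except that Slc16a6 passed without P14 scrambled replicate 2 (0.92, limma adjusted p 0.0394), and 4, 17 and 9 had an unadjusted p under 0.05.

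Most of the wider pathway genes called with age were higher at P14. Of the 90 genes, 55 passed between P5 and P14, 43 higher and 12 lower, or 61.1% where the share of all genes was the 48.8% given above. The median log2 difference was 0.18. With hepatocyte centring 40 passed, 20 higher and 20 lower, and in mimic livers alone 31, 24 higher and 7 lower. That centring left 4 higher and 1 lower in both the β-oxidation and the peroxisomal list described next, and Acad11 lost its call (0.14). In the β-oxidation list 11 of 18 rose and 0 fell, led by the branched-chain dehydrogenase genes Acadsb (0.74, limma adjusted p 1.17e-07) and Acad8 (0.51), with Acad10 (0.71) and Acad11 (0.30). In the peroxisomal list 10 of 14 rose and 0 fell, among them Pex11a, which drives peroxisome division (0.83), Acox2 (0.52), and Abcd3 and Scp2 (0.41 and 0.38).

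Carnitine and fatty acid activation genes split. The plasma membrane carnitine transporter Slc22a5 rose (0.44), as did the carnitine-acylcarnitine carrier Slc25a20 (0.20) and the bile acid and fatty acid ligase Slc27a5 (0.47), while carnitine acetyltransferase Crat fell (-0.46). In this list 4 of 11 rose and 2 fell, and with hepatocyte centring 1 rose and 3 fell, with Slc22a5 at 0.27 and Slc25a20 at 0.03 not called. The ketone list also split, 1 of 8 higher and 3 lower. Slc16a6 fell (-1.05, limma adjusted p 3.24e-07), as did Oxct1 (-0.50), the ketone-using transferase, and Aacs (-0.40), while Bdh2 rose (0.89, and 0.66 with limma adjusted p 0.0523 without P14 scrambled replicate 2). In mimic livers alone Slc22a5 (0.38), Slc25a20 (0.20), Aacs (-0.25) and Bdh2 (0.87) were not called, at limma adjusted p of 0.0645 to 0.272.

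Several control genes had larger differences than the 7 enzymes. Prkaa2, a catalytic subunit of the energy sensor AMPK, had 444, 691 and 508 scaled counts in mimic and 535, 658 and 555 in scrambled livers at P14, against 162, 205 and 126 in mimic and 157, 158 and 152 in scrambled livers at P5, with no overlap between days. P14 exceeded P5 by 1.81 on the log2 scale (SE 0.14, limma adjusted p 3.65e-09). The malonyl-CoA decarboxylase gene Mlycd rose by 0.36, and so did Acaca, which makes malonyl-CoA, by 0.33, and Prkag2, by 0.44, while Acacb and Prkaa1, the other AMPK catalytic subunit gene, fell (-0.68 and -0.21). These last 2 were named after their values were seen. Neither was called in mimic livers alone, and Prkaa1 lost its call without P5 mimic replicate 2, P5 scrambled replicate 1, P14 mimic replicate 1 or 3, or P14 scrambled replicate 1 (-0.19 to -0.17, limma adjusted p up to 0.0670). In this list of malonyl-CoA control 4 of 6 rose and 2 fell, and with hepatocyte centring 2 and 2, where Acaca and Prkag2 lost their calls (0.17 and 0.27). In the list of PPARα partners and regulators 11 of 16 rose and 1 fell, among them Klf15 (1.04), Ppard (0.56), Esrra (0.54) and the obligate partner Rxra (0.45). With hepatocyte centring 6 rose and 1 fell, and in mimic livers alone 6 rose and 0 fell. The FGF receptor genes Fgfr3 and Fgfr4 rose by 0.63 and 0.53, without a call in mimic livers alone (0.50 and 0.33). Klb had 0.13 between P5 and P14 (limma adjusted p 0.508), after 0.57 at P7 against P5.

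PPARα-regulated genes outside oxidation did not follow Ppara upward. Between P5 and P14, 0 of 12 rose and 4 fell: Acot1 (-0.92, limma adjusted p 6.83e-05), Cidec, a lipid droplet gene (-1.17), Hilpda (-0.37) and Angptl4 (-0.34). The list median was -0.17. The count of 4 became 1 without P5 mimic replicate 1, P5 scrambled replicate 3 or P14 scrambled replicate 1, and 2 without P5 mimic replicate 3, P14 mimic replicate 3 or P14 scrambled replicate 2, and it was 3 in mimic livers and 1 in scrambled livers alone. In mimic livers alone Cidec (-1.61), Hilpda (-0.37) and Angptl4 (-0.25) were not called, at limma adjusted p of 0.0523 to 0.304. The 3 called there thus included other genes of the list. Acot1 was called without any 1 library. Pdk4 had -0.14 (limma adjusted p 0.472). Centred on hepatocyte markers 8 of 12 fell, at a list median of -0.33 beside the shifted median of all genes, -0.16.

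Between P5 and P7, 27 of the 90 pathway genes passed, 24 higher and 3 lower, and 0 with the length covariate, as for all genes. The 27 were 30% of the list, beside 26.9% of all genes, and 26.7% were higher, beside 13.7%. The higher ones included Acad10 (0.59), Acad9 (0.38), Acadsb (0.38), Prkaa2 (0.97), Ncoa1 (0.57), Hnf4a (0.31), Acsl1 (0.18) and Abcd2 (0.22), and the lower ones were Hilpda (-0.54), Acot1 (-0.50, and 0.24 in scrambled livers alone) and Angptl4 (-0.38). Mean Hilpda went from 132 at P5 to 70 at P7 in mimic livers and from 110 to 97.3 in scrambled livers. Mean Angptl4 went from 456 to 284 in mimic livers and from 466 to 437 in scrambled livers. A difference between the injections in this change was called in 0 of the 90 genes. Abcd2 and Acot1 each lost their calls without P5 mimic replicate 3, P5 scrambled replicate 3 or P7 mimic replicate 1. Angptl4 lost its call without any 1 of 7 libraries and Acsl1 without any 1 of 9, among them those same 3, with limma adjusted p of 0.0516 to 0.0971. Between P7 and P14, 45 passed, 30 higher and 15 lower, and 20 with the length covariate, where 3303 of all 14104 genes passed. Without that covariate the 45 were 50% of the list, beside 50.3% of all genes, and 33.3% were higher, beside 24.0%. Here Echs1 and Hsd17b10 of β-oxidation rose by 0.27 and 0.29, the ketone body gene Acat1 by 0.22, and Acaa1b and Decr2 of the peroxisome by 0.31 and 0.20, with Decr2 at -0.0017 under hepatocyte centring. Acacb, whose product makes malonyl-CoA at the mitochondrion, fell by 0.93 on the log2 scale, the co-repressor gene Ncor1 by 0.53, Prkaa1 by 0.26 and Acsl4 by 0.28. With the length covariate Acacb (-0.91) and Decr2 (0.20) were called, and Ncor1 (-0.06), Prkaa1 (-0.05), Acsl4 (-0.13), Echs1 (0.06), Hsd17b10 (0.09), Acat1 (0.01) and Acaa1b (0.15) were not. Echs1, Hsd17b10, Acat1 and Acaa1b were not called with hepatocyte centring either, at 0.02 to 0.11, and Acsl4 lost its call without any 1 of 8 libraries (-0.29 to -0.17, limma adjusted p 0.0536 to 0.141).

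**Figure D5:**
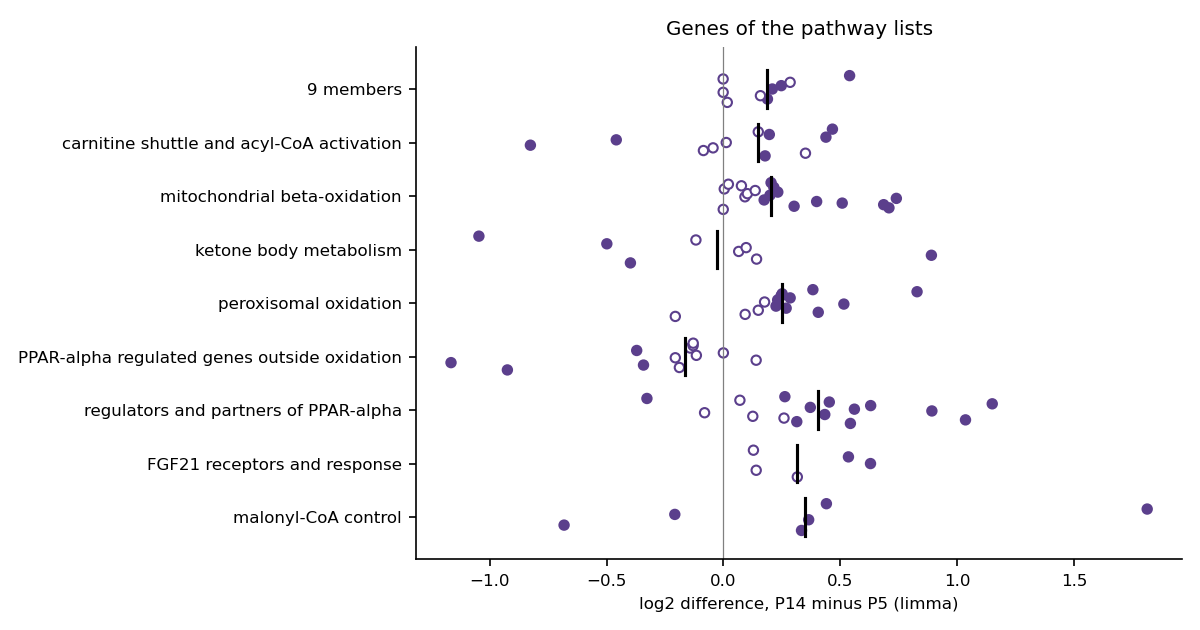
Log2 differences between P14 and P5 (limma, both injections) for the 9 genes and 8 pathway lists, 1 point per tested gene; filled points passed an adjusted p of 0.05 and black bars are list medians. Most β-oxidation, peroxisomal and regulator genes lie right of 0, and the PPARα-regulated list lies left, with a median of -0.17.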

How the data were processed

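The authors deposited 1 table of whole-number scores, called scaled counts here. Judged from the values, these are counts per gene scaled to a common library size and then rounded. Per the submitters' processing notes, Trimmomatic 0.39, STAR 2.6.1d, Picard 2.21.7, featureCounts 1.6.5, DESeq2 1.26.0 and mm10 (GRCm38) were used. The use of strand in counting and any removal of duplicates are not given in the sources used here, so overlapping antisense genes may share reads. Groups came from the sample titles. The worth of 1 read was fitted from whole numbers missing among the low values, at 0.785 to 1.41 scaled counts, and those reads entered no count model.

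The test, run on genes with a mean of at least 10, was limma (version 3.58.1, R 4.3.3) on log2(value + 1), with 1 mean for each of 6 groups and eBayes with a trend (12 residual and 6.5 prior degrees of freedom), and adjusted by Benjamini-Hochberg over all 14104 genes with a threshold of 0.05. Such fold changes understate changes of low genes. The script was tested on simulated data. The 9 genes and all lists were chosen with earlier results of these data known. Pathway genes named were the up to 4 of smallest p per list and age comparison among those passing, the gene of smallest p for each mimic comparison, and always Pdk4 and Klb; some genes of the lists are counted but not reported singly here. Alternatives were another pseudocount, filter, scaling or spread, fewer libraries, replicate blocks, a covariate for each library's rank correlation with transcript length (GENCODE M21), centring on hepatocyte markers, age within each injection, and leaving out each library. Other work used Python 3.11.15 with scipy 1.17.1, numpy 2.4.6, pandas 2.3.3 and matplotlib 3.10.9.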

Additional observations from a re-analysis of the deposited data

How the results depend on the processing

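Between mimic and scrambled livers, limma called 0 of the 9 genes at every day under every alternative run. The count over all genes at P7 (1 in the main fit) was 3 with no filter, 0 at a mean of 50 or more, 0 with no mean-variance trend, 7 with only the libraries compared, 0 with the length covariate and 19 without P7 scrambled replicates 2 and 3 together, a setting chosen after seeing the data. At P14 (3) it was 5 with a pseudocount of 5. The average over days (1) gave 0 with no trend and 12 without those P7 libraries, as did the F test (12). Same-numbered livers of a day had correlations of their deviations from -0.463 to 0.247. These exceeded the correlations with other numbers in P5 replicate 3 and P14 replicates 1 and 2, and not in the rest. With 3 livers per group this cannot decide whether the numbers paired them. With the replicate block over all genes limma called 3 at P7 and 7 at P14, and with a replicate block within its day 7 at P7, 9 at P14 and 0 in the average, with 0 of the 9 genes in each.

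Of P7 against P5, the length covariate left 0 of the 9 genes, 0 of the 90 pathway genes and 0 of all genes, and scrambled livers alone left 0, 0 and 0. All genes called numbered 1416 in mimic livers alone, 1772 with hepatocyte centring and 1470 without both P7 scrambled libraries, and pathway genes 15, 14 and 16. Of P14 against P7, the 9 genes gave 3 calls with quantile normalization, 3 with only the libraries compared, 3 with hepatocyte centring, and 0 with the length covariate or without both P7 scrambled libraries. All genes numbered 3303 with the length covariate, 4163 in mimic livers alone and 4651 without both P7 libraries, and pathway genes 20, 20 and 28, and 29 with hepatocyte centring. Of P14 against P5, mimic livers alone gave 0 of the 9 and 31 pathway genes. Among the genes passing at P14 against P7 and P5, 47.8% and 49.1% were higher in the main fit, 57.7% and 56.4% with quantile normalization, and 15.4% and 22.3% with hepatocyte centring, which moved the median of all genes by over 0.1 on the log2 scale, to -0.19 and -0.16.

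With quantile normalization the mimic difference at P7 was -0.050 in Cpt1a, -0.051 in Acadm and -0.055 in Acadvl and the mimic difference at P5 was 0.028 in Cpt2, 0.00094 in Acadl, 0.066 in Acadvl, 0.021 in Hadha, 0.046 in Bdh1, 0.016 in Ppara and 0.0015 in Klb. There the mimic difference at P14 was 1.5e-06 in Acadm, 0.0062 in Acadl, 8.01e-05 in Acadvl and 0.10 in Bdh1 and P14 minus P5 was -0.083 in Acadl. There the mimic difference over all days was 0.0037 in Acadvl and P7 minus P5 was -0.0049 in Hadha. With the length covariate the mimic difference at P7 was -0.011 in Cpt1a and P14 minus P7 was 0.034 in Cpt1a, -0.067 in Acadl, -0.065 in Bdh1 and 0.18 in Ppara. There P7 minus P5 was 0.11 in Acadl, 0.16 in Acadvl, 0.091 in Bdh1 and -0.15 in Pdk4 and P14 minus P5 was 0.011 in Hadha and 0.027 in Bdh1. There the mimic difference at P5 was 0.035 in Ppara and 0.013 in Klb. In mimic livers alone P14 minus P7 was -0.022 in Cpt2 and 0.052 in Acot1 and P14 minus P5 was 0.021 in Bdh1, -0.16 in Fgf21 and -0.00055 in Klb. With centring on hepatocyte markers P14 minus P7 was -0.12 in Cpt2, -0.076 in Acadm, -0.11 in Acadl, -0.0037 in Acadvl, -0.079 in Bdh1 and -0.0017 in Decr2 and P14 minus P5 was -0.15 in Acadl, -0.0073 in Acadvl and -0.037 in Klb. With TMM scaling the mimic difference at P7 was 0.016 in Hadha and P14 minus P5 was 0.0078 in Hadha and 0.0079 in Bdh1. Without P7 scrambled replicates 2 and 3 together the mimic difference at P7 was 0.033 in Hadha. In scrambled livers alone P14 minus P5 was 0.032 in Hadha and P7 minus P5 was 0.85 in Fgf21 and 0.24 in Acot1. There P14 minus P7 was -0.12 in Fgf21.

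With 1 library left out at a time, genes called over the whole table ranged from 0 to 1 at P5, 0 to 13 at P7, 3 to 16 at P14, 0 to 4 in the average and 1 to 7 in the F test for the mimic, and 1988 to 5072 for P7 against P5; the 9 genes ranged from 0 to 3 for P14 against P7 and the pathway genes from 0 to 1 for the mimic at P14. P7 against P5 had the fewest calls without P5 mimic replicate 1 (2524) or 3 (2159), P7 mimic replicate 1 (1988) or P7 scrambled replicate 2 (2379). The mimic count at P7 was 13 and 9 without P7 scrambled replicates 1 and 2 and 0 without any other P7 liver, and at P14 it was 8, 15 and 16 without P14 mimic replicate 3, P14 scrambled replicate 2 and P14 scrambled replicate 3. Of all 9 genes and the named pathway genes, these had log2 differences that changed sign. The mimic difference at P5 ran from -0.10 to 0.11 in Cpt1a, from -0.029 to 0.012 in Cpt2, from -0.12 to 0.029 in Acadm, from -0.067 to 0.053 in Acadvl, from -0.12 to 0.0066 in Hadha, from -0.11 to 0.041 in Bdh1, from -0.21 to 0.25 in Ppara, from -0.18 to 0.19 in Klb and from -0.37 to 0.099 in Pdk4. The mimic difference at P7 ran from -0.010 to 0.040 in Cpt1a, from -0.070 to 0.058 in Acadm, from -0.13 to 0.0091 in Acadl, from -0.081 to 0.074 in Acadvl, from -0.11 to 0.033 in Hadha and from -0.17 to 0.0067 in Bdh1. The mimic difference over all days ran from -0.038 to 0.0030 in Cpt2 and from -0.030 to 0.12 in Ppara. P14 minus P5 ran from -0.017 to 0.047 in Acadl, from -0.031 to 0.034 in Hadha, from -0.029 to 0.045 in Bdh1 and from -0.0077 to 0.56 in Fgf21. The mimic difference at P14 ran from -0.036 to 0.036 in Bdh1, from -0.25 to 0.046 in Ppara and from -0.033 to 0.34 in Pdk4. Of the results that changed sign, Acadl alone passed the threshold in its new direction, with hepatocyte centring, and the cause of the changes was not tested.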
